A study of Bos taurus with 16 samples.

Results

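The AP-1 transcription factor family was described across 2 skeletal muscles of newborn Hanwoo cattle. The 10 members are FOS, FOSB, FOSL1, FOSL2, JUN, JUNB, JUND, ATF3, BATF3 and CREB5, found among the 34109 listed genes by matching each NCBI gene ID to its symbol. All 10 were matched, and all 10 had at least 1 count in both muscles. Round and sirloin muscle of 8 calves gave 16 libraries, so that each calf is represented by both muscles. The dams of 4 calves were control cows on standard nutrition (nominally 100%). The dams of the other 4 were treated cows on overnutrition (nominally 150%) during mid to late pregnancy. The study's methods describe male calves sampled right after birth, before colostrum and after euthanasia, and nothing beyond the maternal diet distinguishes the groups in the labels. The values taken to have chosen the family are those of FOSL1 and JUND in the diet comparison in round muscle, so members are described there without a test of their own. The study also named CREB5 as downregulated there, at a looser threshold and from these same libraries. The muscles within a calf, the diets in sirloin muscle and the covariation with FOSL1 were compared with tests. The comparison of the muscles, and the difference of the diet effects between them, also use the round libraries.

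AP-1 is a dimer of basic leucine zipper (bZIP) proteins. A FOS protein (FOS, FOSB, FOSL1 or FOSL2) binds DNA only together with a partner such as a JUN protein (JUN, JUNB or JUND), whereas JUN proteins also pair with one another and with ATF and CREB proteins. Many of these genes are immediate early genes, which are transcribed within minutes of a growth factor, stretch or stress signal that arrives through MAP kinases and serum response factor, and their transcripts are short-lived. In skeletal muscle AP-1 is known for its response to exercise, injury and loading, and FOSL1 is a late and more selective member of the FOS group.

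Library totals lay between 44473011 and 72446933 counts. Skeletal muscle fibre markers dominated every library, since 6 markers (ACTA1, CKM, DES, MYLPF, TNNT3 and TTN) summed to between 58869 and 111528 TPM (a level per transcript length, scaled to the same total in every library). Among the other lists, 5 leukocyte markers summed to 5.97 to 10.6 TPM in sirloin control and 8.03 to 57.2 TPM in sirloin treated libraries. In round muscle they summed to 8.50 to 21.7 TPM in control and 7.35 to 35.6 TPM in treated libraries. Between the diets all 5 had positive estimates in sirloin muscle (median log2 fold change 1.14) and 4 in round muscle (median 0.09), and none was called. Their part in the AP-1 values was not tested. A pair of libraries stood apart in fibroblast, tendon or adipocyte markers. In round control replicate 2 the 5 fibroblast markers (PDGFRA, DCN, LUM, COL1A1 and COL3A1) summed to 1471 TPM, against 148 to 613 TPM in the other 15 libraries, and 3 tendon markers summed to 12.9 TPM, against at most 2.41 TPM. In the sirloin library of treated replicate 4 the 4 adipocyte markers (ADIPOQ, PLIN1, LEP and CIDEC) summed to 951 TPM, against at most 3.10 TPM in the other 15 libraries, including 1.79 TPM in round muscle of the same calf. Several values that rest on either calf are given with and without it below. In whole muscle, fewer cells of a type and less RNA per cell cannot be told apart.

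Per transcript length, JUN, JUND, ATF3 and FOSL2 together held 75.8% to 91.9% of the family's TPM in 14 libraries, but 56.7% and 45.5% in the round and sirloin libraries of treated replicate 4. With both diets pooled, the median over the 8 round libraries was 127 TPM for ATF3, a stress-induced member that can repress as a homodimer, 103 TPM for JUN and 96.8 TPM for JUND. FOSL2, FOS and JUNB followed at 50.2, 36.4 and 18.9 TPM, and CREB5 at 8.14 TPM. FOSB, FOSL1 and BATF3 had the lowest medians, 3.49, 3.23 and 0.164 TPM. In sirloin muscle JUN led at 107 TPM, followed by JUND at 97.5 TPM and FOSL2 at 82.9 TPM. ATF3 came after these at 28.8 TPM, ahead of FOS at 27.6 TPM and JUNB at 18.5 TPM. CREB5 and FOSB were at 3.05 and 1.76 TPM, and BATF3 at 0.138 TPM and FOSL1 at 0.0854 TPM closed the order. The order differed by diet. In round control libraries JUND led with a median of 182 TPM ahead of ATF3 at 133 TPM, and FOSL1 at 8.93 TPM stood above FOSB at 5.58 TPM. In round treated libraries JUN led at 125 TPM, ATF3 was at 69.4 TPM and FOSL1 at 0.400 TPM. ATF3 was the highest member in 1 of 8 round libraries. Every pair of neighbours in the pooled orders had overlapping ranges in both muscles, although JUNB exceeded CREB5 in 8 of 8 libraries of each muscle.

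**Figure D1:**
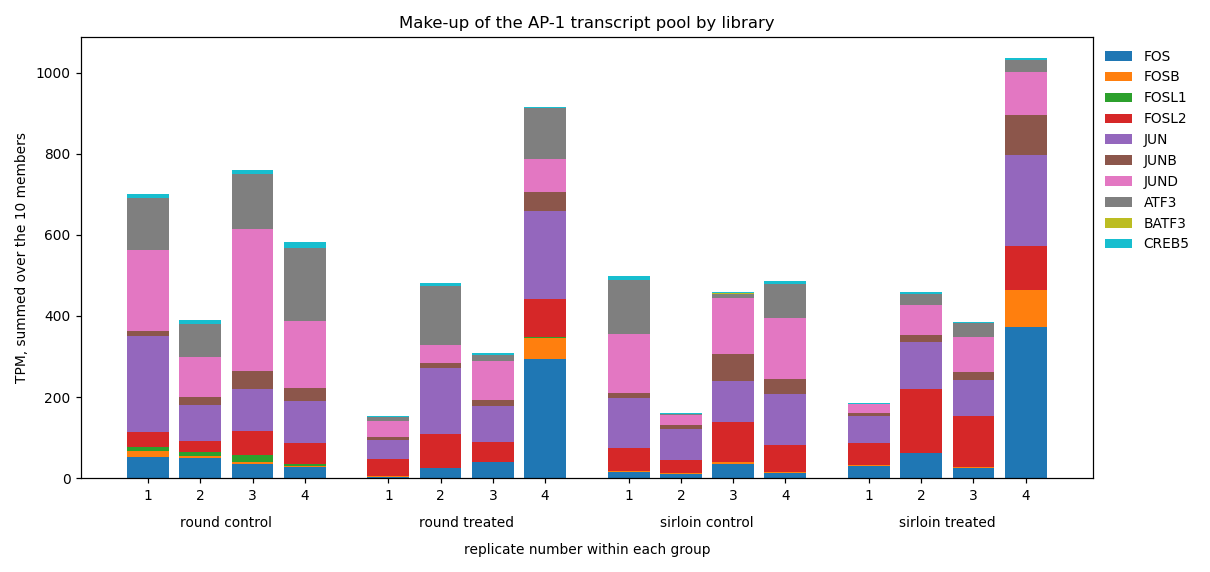
TPM of the 10 members stacked for each of the 16 libraries, grouped by muscle and diet, with the replicate number under each bar. The bars range from 154 TPM in treated replicate 1 of round muscle to 1035 TPM in treated replicate 4 of sirloin muscle, where FOS alone is the largest segment.

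The summed level of the family overlapped between all 4 groups. It ranged from 389 to 759 TPM in control and from 154 to 915 TPM in treated round libraries. The sirloin sums were 161 to 499 TPM in control and 186 to 1035 TPM in treated calves. Which member was highest also varied: JUND led in 2 of 4 round control libraries and 3 of 4 sirloin control libraries, FOSL2 led in 2 of 4 sirloin treated libraries, and FOS led in both libraries of treated replicate 4. The ratio of summed FOS-group TPM to summed JUN-group TPM ran from 0.261 to 0.455 in sirloin control libraries and from 0.781 to 1.34 in sirloin treated libraries. In round muscle it ran from 0.233 to 0.436 in control and from 0.445 to 1.28 in treated libraries. The diets thus did not overlap in either muscle, though they nearly met in round muscle, and treated replicate 4 had the highest ratio in both. The ratio is built from the members and includes those that drew attention to the family, so it is a description.

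FOSL1, which encodes FRA-1, had the largest estimated difference of the 10 members between the muscles of a calf. Its counts in round muscle were 517, 687, 929 and 333 in control replicates 1 to 4 and 63, 10, 48 and 14 in treated replicates 1 to 4. In sirloin muscle the same calves gave 54, 15, 10 and 25 counts in the control group and 0, 4, 2 and 5 in the treated group. Round muscle was thus higher in 8 of 8 calves, and the counts totalled 2601 over the 8 round libraries against 115 over the 8 sirloin libraries.

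As CPM (counts scaled by library total and TMM factor, not by length), FOSL1 was at 12.4, 8.90, 22.6 and 7.27 in round control calves and at 1.00, 0.206, 0.694 and 0.292 in round treated calves. It was at 1.2, 0.201, 0.166 and 0.570 CPM in sirloin control calves and at 0, 0.0800, 0.0298 and 0.0733 CPM in sirloin treated calves. The log2 difference between the muscles, with the calf as a block, was 4.04 (SE 0.526) and passed the test (adjusted p = 0.00758 by edgeR's quasi-likelihood test). It was the 1 of 10 members called in this comparison, where 0.476% of all 22877 genes tested were called, and round muscle was higher in 8 of 8 calves for 1.15% of genes. The round libraries here are those of the diet contrast that drew attention to FOSL1, and its high values are in the round control calves. The test is thus not independent of that choice. Without any 1 calf the difference lay between 3.68 and 4.35, and the adjusted p by edgeR was at most 0.0266. Without control replicate 2, the calf with the high fibroblast sum, it was 3.92 (adjusted p = 0.0264 by edgeR). The log2 difference of single calves ran from 1.06 in treated replicate 2, which had 10 counts in round and 4 in sirloin muscle, to 6.80 in control replicate 3. It was 3.33 to 6.80 in the control calves and 1.06 to 4.86 in the treated ones.

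Of 4 smooth muscle markers, 2 were also called higher in round muscle, TAGLN at 0.70 (SE 0.118) and ACTA2 at 0.69 (SE 0.130), each higher in 8 of 8 calves. The other 2 had positive estimates and were not called. The summed TPM of all 4 ran from 149 to 254 in round control, 86.1 to 194 in round treated, 61.8 to 149 in sirloin control and 77.9 to 129 in sirloin treated libraries, with all 4 markers above 0 in every library. CNN1, among these 4, was picked by the study from these libraries as lower in round treated calves. Of 5 fibroblast markers 4 had positive estimates and none was called. An unadjusted p below 0.05 by edgeR with round muscle higher was found for 3 of them, and for 1282 of all 22877 genes. Round muscle was higher in 8 of 8 calves for 1 of the 5. Their median log2 difference was 0.69, beside 0.70 for the smooth muscle markers. The part of these cells in the FOSL1 difference was not tested.

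**Figure D2:**
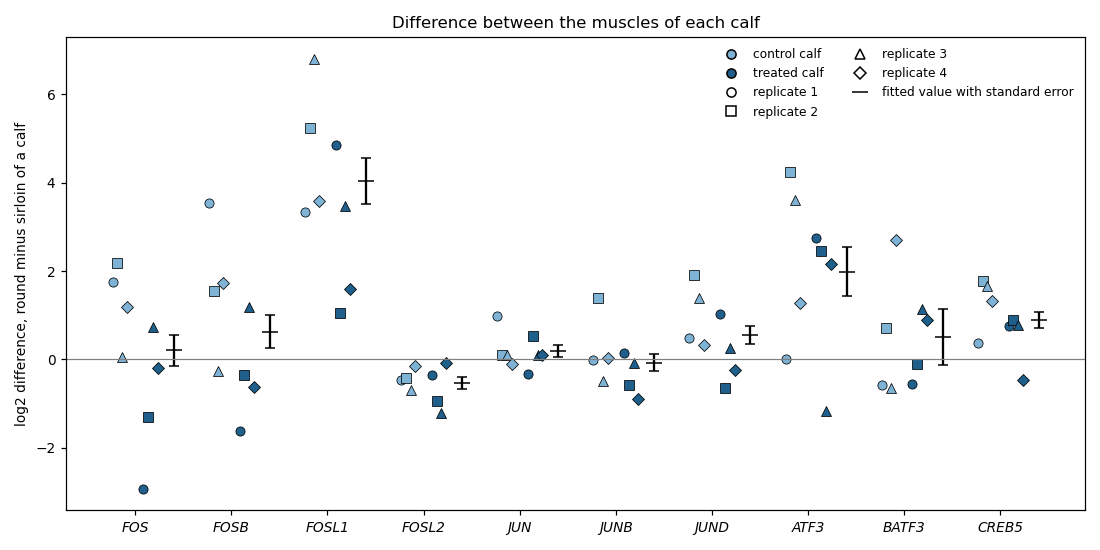
Log2 difference in CPM (prior count 2) between round and sirloin muscle of the same calf for each member, with 4 control and 4 treated calves as points and the fitted difference with its standard error beside them. All 8 points of FOSL1 lie above 0, between 1.06 and 6.80, and all 8 of FOSL2 lie below 0, between -1.20 and -0.09.

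Between the diets, FOSL1 was lower in treated calves in both muscles, with no overlap between the groups in either. In round muscle the mean was 12.8 ± 6.86 CPM in the control calves and 0.549 ± 0.370 CPM in the treated ones (SD, n = 4 each), which gave a log2 fold change of -4.49 (SE 0.572). This is the contrast that drew attention to the family, so its values are a description. Groups without overlap and lower in treated calves were found for 2 of 10 members, FOSL1 and CREB5, and for 1.07% of all genes, from which nothing is read here. Sirloin muscle of the same calves is taken as not used to choose FOSL1, though the members were chosen with earlier results of these data known. There the mean was 0.536 ± 0.482 CPM in the control calves and 0.0458 ± 0.0378 CPM in the treated ones (SD, n = 4 each). The log2 fold change of -3.48 (SE 0.954) there had an unadjusted p of 0.00398 and did not pass the adjustment over all genes (adjusted p = 0.876 by edgeR). Control replicate 1 held 54 of the 104 counts of its group, and without it the control mean was 0.313 ± 0.224 CPM (SD, n = 3) and the log2 fold change -2.71. Without control replicate 2 it was -3.76. Its groups did not overlap, which held for 0.822% of all genes in that direction. None of the 10 members was called in sirloin muscle by edgeR, DESeq2 or limma-voom. The share of all 21776 genes called was 0.00918% by edgeR and 0.0597% by DESeq2, and 3 of 10 members (FOSL1, FOS and CREB5) against 3.91% of all genes had an unadjusted p below 0.05. Of these, FOSL1 and CREB5 had been named by the study as lower in round muscle of the same calves. The diet effects in the muscles differed by -1.41 (SE 1.21) for FOSL1, which did not pass (adjusted p = 1.00 by edgeR). This difference contains the round values that drew attention to the family. With single calves left out this difference ranged from -2.14 without treated replicate 1 to -0.76 without control replicate 3, and it was -0.79 without treated replicate 4. The 11 counts of the 4 sirloin treated libraries limit how precisely that difference can be known.

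**Figure D3:**
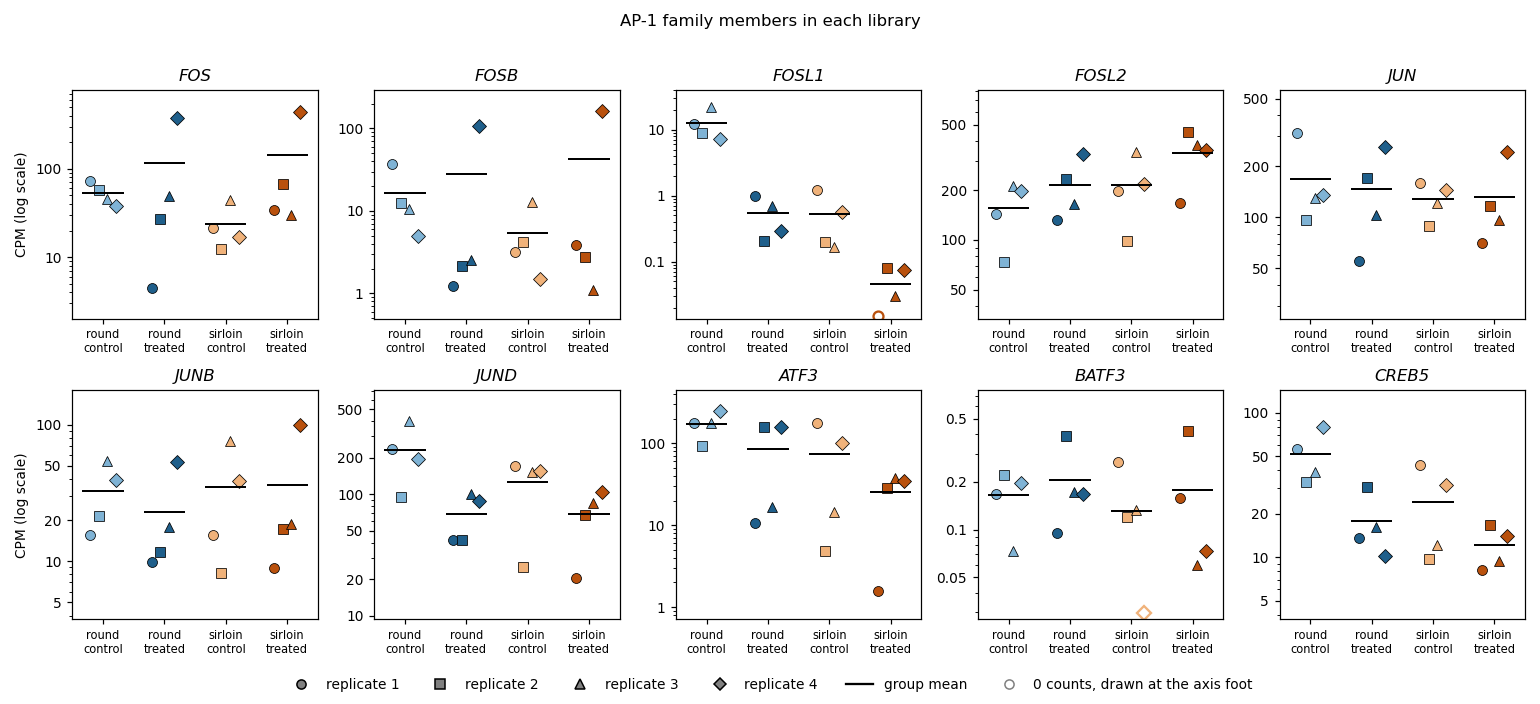
CPM of each member in the 16 libraries on log axes, with groups along the horizontal axis, replicate numbers as marker shapes, group means as bars and libraries with 0 counts as open markers at the foot of the axis. FOSL1 separates the diets in both muscles, while treated replicate 4 lies far above the other treated calves for FOS and FOSB.

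FOSL2, which encodes FRA-2, was the most abundant FOS-group member by median TPM and had an estimate opposite in sign to that of FOSL1 between the muscles. In round muscle it was at 144, 73.3, 212 and 197 CPM in the control calves and 132, 234, 164 and 331 CPM in the treated ones. In sirloin muscle it was at 199, 98.0, 341 and 218 CPM in the control calves and 168, 452, 378 and 351 CPM in the treated ones. Sirloin muscle was higher in 8 of 8 calves, a pattern seen in 1.34% of all genes, but the log2 difference was small at -0.54 (SE 0.135) and missed the threshold (adjusted p = 0.117 by edgeR). It passed with DESeq2 (adjusted p = 0.00652) and by edgeR without treated replicate 4, where it was -0.64 (adjusted p = 0.0444). Without that calf edgeR called 195 genes higher in round and 127 in sirloin muscle, beside 62 and 47 with all calves. The diets overlapped in both muscles, with log2 fold changes of 0.48 (SE 0.367) in round and 0.65 (SE 0.382) in sirloin muscle. The round value was 0.16 without treated replicate 4 and 0.21 without control replicate 2. The sirloin value was 0.41 without control replicate 2 and 0.97 without control replicate 3.

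FOS and FOSB, the classical rapidly induced members, were highest by far in 1 calf. FOS was at 73.2, 57.1, 45.5 and 38.4 CPM in round control and 4.43, 26.8, 49.0 and 379 CPM in round treated calves. The sirloin values were 21.6, 12.5, 44.1 and 16.9 CPM in the control calves and 33.9, 66.6, 29.7 and 436 CPM in the treated ones. Treated replicate 4 was 5.18 times the next highest library in round and 6.55 times in sirloin muscle.

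FOSB showed the same calf. It was at 37.0, 12.4, 10.6 and 5.02 CPM in round control and 1.23, 2.18, 2.53 and 106 CPM in round treated calves. Sirloin muscle gave 3.17, 4.22, 12.7 and 1.48 CPM in the control calves and 3.86, 2.78, 1.09 and 164 CPM in the treated ones. The other 3 treated round libraries all lay below the lowest round control library for FOSB.

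The diet values of both genes turned on that calf. In round muscle the log2 fold change of FOS was 1.12 (SE 0.920) with all calves and -1.01 without treated replicate 4, and that of FOSB was 0.80 (SE 1.19) and -3.04. In sirloin muscle FOS was at 2.54 (SE 0.826) and 0.87 without that calf, and FOSB at 2.95 (SE 1.39) and -1.07. Neither passed in sirloin muscle with all calves (adjusted p = 0.876 for both by edgeR), nor without the calf (adjusted p = 0.955 for both by edgeR). The diet effects in the muscles differed by -2.19 (SE 0.702) for FOS and by -2.01 (SE 0.750) for FOSB. Their unadjusted p-values by edgeR were 0.00885 and 0.0199, and both had an adjusted p of 1.00. No member was called for this difference, where 0.00437% of all genes were. An unadjusted p below 0.05 by edgeR was found for 3 members (FOS, FOSB and JUND) and for 3.78% of all genes. The difference contains the round diet values that drew attention to FOSL1 and JUND, so this count is a description. DESeq2 also called no member, beside 0.0175% of all genes.

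Other genes moved with that calf. Of 16 other immediate early genes, treated replicate 4 was the highest of 8 libraries for 7 in round and 11 in sirloin muscle, against 9.68% and 18.1% of all genes tested. The following genes were chosen after their values were seen. EGR1, a zinc finger factor induced through the same serum response factor, was at 128 CPM in round and 237 CPM in sirloin muscle of that calf, where the other 7 libraries had medians of 24.9 and 17.6 CPM, although 1 other round library reached 153 CPM. CCN1, a secreted matrix protein, was at 369 and 290 CPM against medians of 81.2 and 48.6 CPM. NR4A3, a nuclear receptor, did not share this and was at 10.4 and 3.33 CPM against medians of 23.3 and 29.7 CPM. All 4 adipocyte markers were highest in the sirloin library of this calf but summed to only 1.79 TPM in its round library, where FOS and FOSB were also highest. In sirloin muscle this calf was also the highest for 4 of 5 endothelium markers, 3 of 5 fibroblast markers and 12 of 18 MAP kinase feedback genes, and the lowest for 12 of 25 upstream kinases and serum response factors, where it was the lowest for 9.50% of all genes. Its sirloin sums of 90.3 TPM for endothelium and 613 TPM for fibroblast markers were the highest of the 8 sirloin libraries. The part of adipose tissue, endothelium or fibroblasts in these values was not tested.

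**Figure D4:**
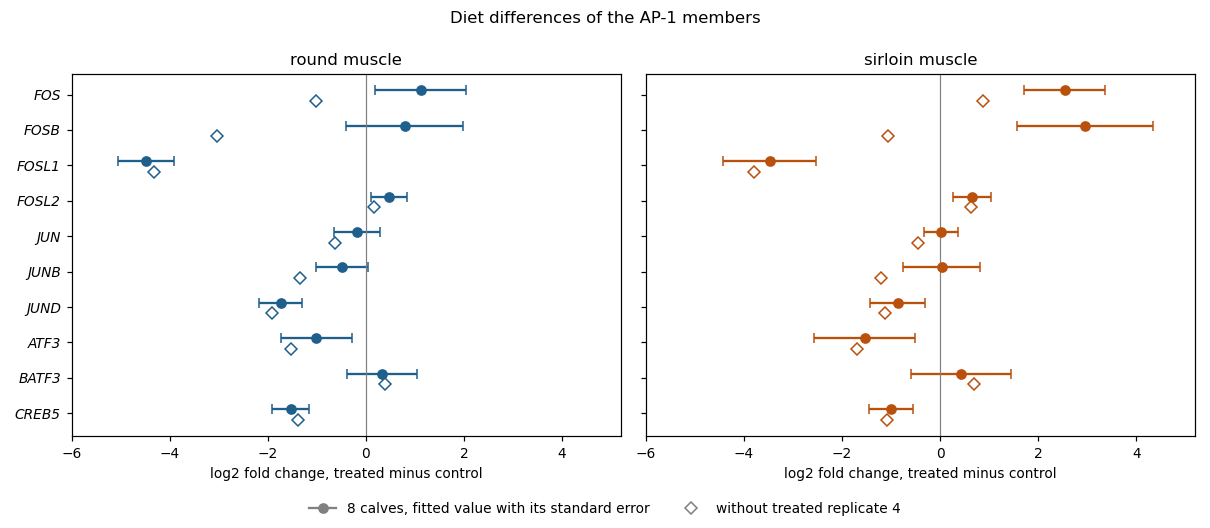
Log2 fold change of each member between treated and control calves in round and in sirloin muscle, with all 8 calves (filled circles, bars for the standard error) and without treated replicate 4 (open diamonds). FOS and FOSB in round muscle and FOSB in sirloin muscle change sign without that calf, and FOSL1 does not.

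JUND, a JUN protein that is expressed in resting cells more steadily than its relatives, was lower in calves of treated cows by its estimates in both muscles. It was at 237, 94.3, 396 and 196 CPM in round control and 42.2, 42.5, 101 and 87.9 CPM in round treated calves. The groups overlapped by control replicate 2 alone, and the log2 fold change was -1.74 (SE 0.434) with all calves and -2.03 without that calf. In sirloin muscle of the same calves it was at 170, 25.1, 151 and 155 CPM in the control calves and 20.6, 66.9, 84.9 and 105 CPM in the treated ones.

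Sirloin control replicate 2 thus had the lowest JUND of its group, 25.1 CPM, against 94.3 CPM in round muscle of the same calf. The sirloin log2 fold change of JUND was -0.87 (SE 0.567, adjusted p = 0.876 by edgeR). It was -1.21 without control replicate 2 and -0.56 without treated replicate 1. Round muscle was higher in 6 of 8 calves, with a log2 difference of 0.56 (SE 0.209, adjusted p = 0.315 by edgeR). The diet effects differed between the muscles by -0.94 (SE 0.417), which did not pass the adjustment. That value contains the round diet contrast in which JUND drew attention to the family.

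The groups overlapped for JUN, the partner of most FOS proteins. It was at 314, 96.0, 130 and 136 CPM in round control and 55.5, 171, 103 and 261 CPM in round treated calves. In sirloin muscle it was at 159, 89.3, 122 and 146 CPM in the control calves and 70.1, 117, 95.8 and 243 CPM in the treated ones. Diet gave log2 fold changes of -0.18 (SE 0.469) in round and 0.02 (SE 0.352) in sirloin muscle, which became -0.63 and -0.44 without treated replicate 4, and the difference between the muscles was 0.18 (SE 0.139, adjusted p = 0.755 by edgeR).

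JUNB, which is rapidly induced and can restrain JUN, varied among calves in both muscles. It was at 15.5, 21.6, 54.3 and 39.2 CPM in round control and 9.86, 11.6, 17.8 and 53.0 CPM in round treated calves. The sirloin values were 15.5, 8.23, 76.6 and 38.5 CPM in the control calves and 8.93, 17.3, 18.8 and 99.3 CPM in the treated ones. Treated replicate 4 was again highest in sirloin muscle. The log2 fold changes were -0.48 (SE 0.536) in round and 0.03 (SE 0.785) in sirloin muscle, which became -1.33 and -1.21 without treated replicate 4. The round value was -0.13 without control replicate 3. The difference between the muscles was -0.07 (SE 0.189, adjusted p = 1.00 by edgeR).

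ATF3 had the next largest estimate between the muscles after FOSL1, with wide spread. It was at 179, 92.1, 178 and 244 CPM in round control and 10.7, 156, 16.8 and 157 CPM in round treated calves. Sirloin muscle gave 177, 4.84, 14.5 and 101 CPM in the control calves and 1.56, 28.4, 38.0 and 34.8 CPM in the treated ones. Single libraries of a group differed by an order of magnitude or more in 3 of the groups. Round muscle was higher in 7 of 8 calves, and the log2 difference was 1.99 (SE 0.548, adjusted p = 0.147 by edgeR). DESeq2 called it (adjusted p = 0.0146). Without control replicate 2 the difference by edgeR was 1.64. Between the diets ATF3 had log2 fold changes of -1.02 (SE 0.723) in round and -1.53 (SE 1.03) in sirloin muscle, with overlap in both. Neither size was stable. The round value was -0.65 without treated replicate 1, -1.53 without treated replicate 4, -1.84 by limma-voom and -1.85 with a replicate block. The sirloin value was -0.65 without control replicate 1, -1.94 without control replicate 2 and -0.46 with a replicate block.

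CREB5, a CREB protein that pairs with JUN, was close to the threshold between the muscles. The study named it among the downregulated genes of round muscle in these libraries. It was at 56.1, 33.3, 39.0 and 79.6 CPM in round control and 13.7, 30.8, 16.3 and 10.2 CPM in round treated calves, with no overlap. In sirloin muscle of the same calves it was at 43.3, 9.66, 12.2 and 31.7 CPM in the control calves and 8.16, 16.6, 9.43 and 14.1 CPM in the treated ones, with overlap. Round muscle was higher in 7 of 8 calves, treated replicate 4 being the exception.

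The log2 difference of CREB5 between the muscles was 0.90 (SE 0.185) and missed the threshold (adjusted p = 0.0603 by edgeR). It passed with DESeq2 (adjusted p = 0.000424), with upper-quartile factors (adjusted p = 0.0465 by edgeR), without treated replicate 4, where it was 1.04 (adjusted p = 0.0132 by edgeR), and without control replicate 1, where it was 1.05 (adjusted p = 0.0224 by edgeR). With DESeq2, 4 of 10 members (FOSL1, CREB5, FOSL2 and ATF3) were called between the muscles, against 3.77% of all genes. By edgeR, 195 genes were called higher and 127 lower in round muscle without treated replicate 4, beside 62 and 47 with all calves. The diet log2 fold changes of CREB5 were -1.53 (SE 0.377) in round and -1.01 (SE 0.453, adjusted p = 0.876 by edgeR) in sirloin muscle. The sirloin value was -0.56 without control replicate 1 and -1.28 without control replicate 2.

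BATF3, known for its role in dendritic cells, was near the limit of detection. Its counts were 7, 17, 3 and 9 in round control, 6, 19, 12 and 8 in round treated, 12, 9, 8 and 0 in sirloin control and 8, 21, 4 and 5 in sirloin treated libraries. All groups overlapped, and no difference was detectable at this depth.

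The genes around AP-1 were counted by list. Between the muscles, 13 other bZIP partners, 25 upstream kinases and serum response factors and 18 MAP kinase feedback genes held no call. Their median log2 differences were 0.11, 0.04 and 0.06, beside -0.004 over all genes. Of 16 other immediate early genes, 3 were called higher in round muscle and none lower, where 0.476% of all genes were called, and the median was 0.54. These were IER5, a heat shock factor regulator, at 1.09 (SE 0.135, adjusted p = 0.00534 by edgeR), CCN2, a matrix protein also called CTGF, at 1.36 (SE 0.241, adjusted p = 0.0349 by edgeR) and BTG2, an antiproliferative factor, at 0.67 (SE 0.123, adjusted p = 0.0413 by edgeR). Of 20 AP-1 target genes listed, 2 had no count in any library. Among the 18 tested, 17 had positive estimates, as did 49.5% of all genes, and the median was 0.68. CD44, a hyaluronan receptor that the study picked from these libraries, was at 1.06 (SE 0.257) and HBEGF, an EGF receptor ligand, at 1.86 (SE 0.503). Neither was called.

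Between the diets, no gene of these 5 lists was called in either muscle by edgeR, where 0.0185% of all 21677 genes tested in round and 0.00918% in sirloin muscle were. In round muscle 16 of 18 AP-1 target genes had negative estimates, as did 48.1% of all genes, with a median of -0.75 beside 0.02 over all genes. Among the lowest p-values there were those of CD44 at -2.16 (SE 0.475) and PLAUR, the urokinase receptor, at -1.87 (SE 0.539). In sirloin muscle 9 of 17 had negative estimates, as did 47.1% of all genes, with a median of -0.04. The feedback genes had a median of -0.28 in round and 0.12 in sirloin muscle. SPRY4, an inhibitor of receptor tyrosine kinase signalling, was at -1.11 (SE 0.346) and -0.96 (SE 0.314). The other immediate early genes had medians of -0.50 and 0.28, and ARC, which the study picked from these libraries, was at -5.36 (SE 0.844) in round muscle. CREM, a cyclic AMP-responsive bZIP factor, was at -1.61 (SE 0.567) and -1.59 (SE 0.586). Among the kinases MAP2K6, which activates p38 and which the study also picked from these libraries, was at -1.04 (SE 0.202) in sirloin muscle.

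To see which members varied with FOSL1 among calves, the diet means were removed from log2 CPM in each muscle and the remaining values of 8 calves were compared for the 9 other members, 9 relations per muscle. None passed the adjustment over all genes in either muscle. The smallest p that the 576 orders of calves within the diets allow is 0.0017. In round muscle, where FOSL1 had 10 to 929 counts, JUND was the only member with a positive correlation (r = 0.370, rho = 0.238, exact permutation p = 0.351 and 0.615, adjusted p = 0.985). ATF3 ran opposite to FOSL1 (r = -0.753, rho = -0.810, exact permutation p = 0.160 and 0.101, adjusted p = 0.977). Without the 2 calves farthest from the median of FOSL1, r was 0.608 for JUND, -0.839 for ATF3 and 0.066 for FOS, which had been at -0.457. BATF3 had the strongest value (r = -0.882, rho = -0.786, exact permutation p = 0.00868 and 0.0382, adjusted p = 0.977, r = -0.676 without 2 calves), but it rests on 3 to 19 counts per library. It was the only 1 of 9 members with an unadjusted p below 0.05, where 4.28% of all genes had one.

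In sirloin muscle, where FOSL1 had 0 to 54 counts, CREB5 was closest to it (r = 0.950, rho = 0.857, exact permutation p = 0.00868 and 0.0174, adjusted p = 0.838). ATF3 followed (r = 0.881, rho = 0.714, exact permutation p = 0.0208 and 0.0938, adjusted p = 0.838), and then JUN (r = 0.679, rho = 0.738, exact permutation p = 0.0399 and 0.0538, adjusted p = 0.838). These were 3 of 9 members with an unadjusted p below 0.05, where 5.49% of all genes had one. Without the 2 calves farthest from the median of FOSL1, r was 0.913 for CREB5, 0.903 for ATF3 and 0.806 for JUN. It was then 0.931 for FOSL2, 0.892 for JUND and 0.779 for JUNB, so the order of the members by likeness to FOSL1 rests on those calves. With all calves, JUND had an r of 0.626 (rho = 0.50, exact permutation p = 0.198 and 0.255, adjusted p = 0.849), and the other 5 members lay between -0.002 and 0.334. CREB5 and ATF3 thus had values of opposite sign in the muscles, at -0.430 and -0.753 in round against 0.950 and 0.881 in sirloin muscle. The difference between the muscles was not tested.

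**Figure D5:**
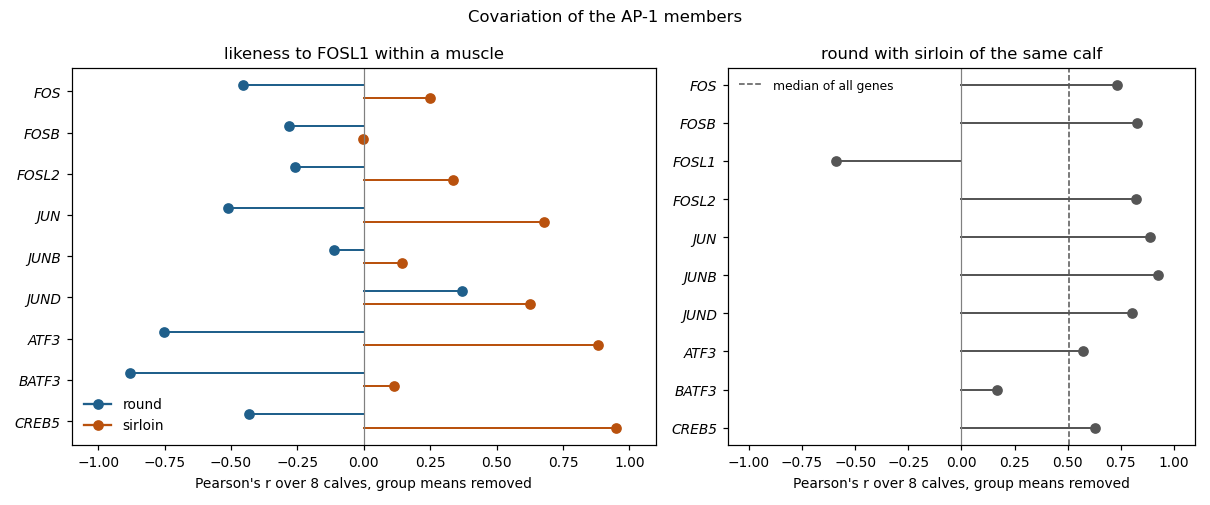
Left, Pearson's r of each member with FOSL1 over 8 calves in round and in sirloin muscle after removal of the diet means. Right, r between the round and sirloin values of each member over the same calves, with the median of all genes as a dashed line at 0.508; FOSL1 alone is negative there, at -0.588.

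The round and sirloin values of a calf, with group means removed, were compared for each member, and none passed the adjustment over all genes. The value of r was 0.926 for JUNB (rho = 0.833, exact permutation p = 0.00868 and 0.0278, adjusted p = 0.161) and 0.887 for JUN (rho = 0.952, exact permutation p = 0.0122 and 0.00347, adjusted p = 0.170). FOSL2 was at 0.824 (rho = 0.619, exact permutation p = 0.0330 and 0.144, adjusted p = 0.216) and JUND at 0.804 (rho = 0.643, exact permutation p = 0.0330 and 0.146, adjusted p = 0.216). These 4 of 10 had an unadjusted p below 0.05, as did 20% of all 20576 genes, whose median r was 0.508. Without the 2 calves farthest from the median, r was 0.725 for JUNB, 0.897 for JUN and 0.722 for JUND but 0.257 for FOSL2, whose value rests on those calves. Without control replicate 2 alone, r was 0.592 for JUND and 0.656 for FOSL2.

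FOS and FOSB had an r of 0.73 and 0.83 between the muscles (rho = 0.405 and 0.690, exact permutation p = 0.267 and 0.122 for r, adjusted p = 0.502 and 0.352). Without treated replicate 4 these were 0.0314 and 0.0190, so they rest on that calf. FOSL1 was at -0.588 (rho = -0.667, exact permutation p = 0.139 and 0.0833, adjusted p = 0.373), and -0.0910 without its 2 farthest calves. CREB5 was at 0.631, ATF3 at 0.571 and BATF3 at 0.168, with permutation p-values for r of 0.120, 0.0642 and 0.734.

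Over all 16 libraries with the 4 group means removed, no member was among the 5 genes most like FOSL1 of the 12314 with at least 1 CPM on average. JUND stood at rank 211 (r = 0.532), CREB5 at rank 719 (r = 0.415) and ATF3 at rank 1660 (r = 0.302), while FOS and FOSB had negative values of -0.123 and -0.124. The 5 genes most like FOSL1 were PPP1R13L at 0.807, NFKB2 at 0.783, SREBF2 at 0.782, CCNYL1 at 0.776 and SLC66A2 at 0.744. PPP1R13L encodes an inhibitor of p53 and NF-kappa-B, NFKB2 an NF-kappa-B subunit and SREBF2 a regulator of cholesterol synthesis. Both libraries of a calf enter these values, so they are descriptions and have no p-value.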

How the data were processed

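Round and sirloin muscle of 8 calves were sequenced as 16 libraries. For each gene the authors deposited raw counts and TPM. The submitters' processing notes name FastQC, Trimmomatic, STAR, featureCounts, DESeq2 and ARS-UCD1.2, whereas the study's methods name HISAT2, Bowtie2 and StringTie and no build, and a total RNA kit where the labels give poly(A) selection. Symbols came from a RefSeq table of assembly ARS-UCD2.0, which matched 30762 of 34109 gene IDs. No coordinates or sequences are given, because the assemblies differ. Deposited tables of the authors' fold changes and p-values were not used.

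Counts were tested with edgeR 4.0.16 (R 4.3.3) using TMM factors, glmQLFit and glmQLFTest, two-sided, on genes with at least 1 count in any library used, with Benjamini-Hochberg adjustment over all genes and a threshold of 0.05. Diet was tested in each muscle without a block. The muscle difference and its interaction with diet used all 16 libraries with the calf as a block. The standard error is the log2 fold change divided by the square root of F. Levels of different genes were compared in TPM only. Correlations used log2 CPM (prior count 2) and exact permutation of calves within diets. Alternatives were DESeq2 1.42.0, limma-voom 3.58.1, RLE and upper-quartile factors, filterByExpr, a prior count of 0.5, log2(TPM + 1), blocks, a single fit and leaving out each calf. The steps were tested on simulated data.

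The labels number the same calf alike in both muscles. Residuals from the group means were checked: those of a calf's muscles correlated at 0.264 to 0.609, and those of different calves at -0.350 to 0.288. Each library counts 1 calf (n = 4 per group). The named genes were all members, at most 3 genes with the smallest p per list, and the 5 genes most like FOSL1. EGR1, CCN1 and NR4A3 fall outside this rule and were named after their values were seen. The values of 1 AP-1 target gene are not reported here. The members, lists and tests were chosen with earlier results of these data known. Counting error weighs most on BATF3, with 0 to 21 counts per library, and on FOSL1 in sirloin muscle, with 0 to 54.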

Additional observations from a re-analysis of the deposited data

Results flagged for a closer look

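Gaps within a group of 4 calves were compared with the 95% limit of Dixon's test for each member, in 40 groups of 4 libraries. For normally distributed values the limit is passed in about 1 of 20 groups, and 6 values passed it. CPM values need not be normally distributed, so the number to be met by chance here is not known. In treated replicate 4, FOS was at 379 CPM in round and 436 CPM in sirloin muscle, FOSB was at 106 CPM in round and 164 CPM in sirloin muscle, and JUNB was at 99.3 CPM in sirloin muscle, each far above the other 3 treated calves. The values come from 2 libraries of 1 calf and are not independent. In sirloin control replicate 2, JUND was at 25.1 CPM, far below the other 3 control calves.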

How the results depend on the processing

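The FOSL1 difference between the muscles kept its direction and its call under all 14 alternatives, and no alternative called a member between the diets in sirloin muscle or for the difference of the diet effects. In round muscle, where FOSL1 and JUND drew attention to the family and calls are a description, edgeR called 1 member between the diets, DESeq2 2 and limma-voom 0. Over all 21677 genes there, edgeR called 1 higher and 3 lower in treated calves, DESeq2 8 and 38, and limma-voom 0 and 1. Between the muscles DESeq2 called 4 members, beside 456 of all 22877 genes higher in round muscle and 406 lower. Upper-quartile factors called 2 members, beside 76 and 56 genes. With log2(TPM + 1), 0 members in round and 1 in sirloin muscle had an unadjusted p below 0.05 for likeness to FOSL1, and r in sirloin muscle became -0.0133 for FOS and -0.108 for JUNB. With a prior count of 0.5, r of FOSB in sirloin muscle became 0.0877. With limma-voom, the diet log2 fold change became -0.43 for FOS and -1.33 for FOSB in round muscle, and -0.093 for JUN and -0.050 for JUNB in sirloin muscle. The filterByExpr filter gave no value for BATF3 between the diets or for FOSL1 between the diets in sirloin muscle. The causes were not tested.

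Calves of different diets that share a replicate number showed no clear pairing. Their residuals correlated at -0.068 to 0.191 in round and -0.161 to 0.169 in sirloin muscle. So few values cannot exclude a pairing. A replicate block left the counts of called members at 1 in round and 0 in sirloin muscle, and gave -0.44 for FOS and -1.93 for FOSB in round and -0.098 for JUN and -0.073 for JUNB in sirloin muscle. Without the calf block, the diet effects of ATF3 differed between the muscles by 0.50.

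With each calf left out in turn, the members called between the diets in round muscle ranged from 0 to 1 (1 without treated replicate 1, 0 without any other calf), those called between the muscles from 1 to 3 (3 without treated replicate 4, 2 without control replicate 1), those with an unadjusted p below 0.05 for likeness to FOSL1 from 0 to 2 in round (0 without control replicate 3 or treated replicate 1) and 1 to 5 in sirloin muscle (5 without control replicate 3; 1 without control replicate 1, control replicate 4 or treated replicate 1), and those for agreement of the muscles from 2 to 4 (2 without control replicate 2, treated replicate 1 or treated replicate 2). Over all genes, edgeR called 195 higher and 127 lower in round than in sirloin muscle without treated replicate 4. It called 100 and 53 without control replicate 1, beside 62 and 47 with all calves. Several uncalled values of the members changed sign. For likeness to FOSL1 in round muscle r ranged from -0.652 to 0.000448 for FOS, -0.546 to 0.0426 for FOSB, -0.609 to 0.00589 for FOSL2 and -0.452 to 0.216 for JUNB. In sirloin muscle it ranged from -0.560 to 0.198 for FOSB, -0.0910 to 0.562 for JUNB and -0.357 to 0.423 for BATF3, and for agreement of the muscles from -0.381 to 0.50 for BATF3. The diet log2 fold change in round muscle ranged from -1.01 to 1.52 for FOS, -3.04 to 1.59 for FOSB, -0.63 to 0.31 for JUN and -0.18 to 0.56 for BATF3. In sirloin muscle it ranged from -1.07 to 3.82 for FOSB, -0.44 to 0.22 for JUN, -1.21 to 0.78 for JUNB and -0.43 to 1.01 for BATF3. Between the muscles it ranged from -0.072 to 0.52 for FOS and -0.25 to 0.055 for JUNB, and for the difference of the diet effects from -0.31 to 0.085 for JUN, -1.39 to 0.17 for ATF3 and -0.65 to 0.61 for BATF3. Depth limits the values of BATF3 and of FOSL1 in sirloin muscle, and 4 calves per group limit all others.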
